A study of Homo sapiens with 9 samples.

Results

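PaTu 8988t, an established human pancreatic tumour cell line, was compared on extracellular matrix containing wild-type CPXM2 and on control matrix. The comparison took the 3 wild-type libraries against the 3 control libraries, 6 of the 9 libraries of the series. All 6 came from the same unmodified line per the labels, and the groups differed in the matrix: Ctrl ECM for control 1 to 3 and CPXM2WT OE ECM for wild type 1 to 3. The 3 libraries on CPXM2R213A OE ECM, matrix with a CPXM2 mutant, appear only as context. The labels do not spell out the letters OE, and they do not say which cells laid down the matrix or how long PaTu 8988t cells stayed on it. The authors deposited FPKM values (fragments per kilobase of gene length, scaled by a size value of each library) in 2 tables, and each difference was formed within a table. The 4-library table held control 1 and wild type 1, and the 5-library table held control 2, control 3, wild type 2 and wild type 3. Of 58735 genes, the 11193 with a mean of at least 1 FPKM over the 9 libraries were tested. Each table may carry a scaling of its own, so levels set across tables are descriptive. Differences are given as wild type minus control on the log2(FPKM + 1) scale, which understates the change of genes with low values.

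CPXM2 is a secreted member of the M14 carboxypeptidase family that carries a discoidin domain, the kind of domain with which the collagen receptors DDR1 and DDR2 hold collagen. Cells read the collagen around them through integrins and discoidin receptors, and pass tension to actin fibres and to the coactivators YAP and TAZ, which drive genes such as CCN1 and ANKRD1 together with TEAD factors. In pancreatic tumours the collagen-rich matrix makes up much of the tissue, and its alignment and stiffness are known to affect tumour cell growth and movement.

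The cells kept the marks of their line in both groups. The simple epithelial keratins KRT8 and KRT18 ranged from 106 to 192 and from 211 to 531 FPKM over the 6 libraries, and the mesenchymal filament gene VIM was at 81.0 FPKM or more. The E-cadherin gene CDH1 and the keratin gene KRT19 stayed at or under 0.136 and 0.0717 FPKM, so these epithelial markers were near 0. EPCAM, another epithelial marker, was between 2.31 and 6.57 FPKM. CPXM2 itself had 0 reads in each of the 6 libraries, so the RNA cannot check which matrix a library met. Of the markers of cells that could be carried over with a matrix, 1 of 18 for fibroblasts, 3 of 13 for endothelium and 0 of 16 for immune cells reached the filter. The fibroblast markers summed to between 8.50 and 38.8 FPKM in control and between 3.92 and 33.3 FPKM in wild-type libraries, and 4 of the 18 were at 0 in all 6. The endothelial markers summed to between 24.2 and 27.3 FPKM in control and between 23.6 and 50.8 FPKM in wild-type libraries. The immune markers summed to at most 0.998 FPKM.

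The libraries held 17160420 to 18312806 recovered reads. Wild type 1 and control 1, the only pair of the 4-library table, differed at least 2-fold in 1862 genes. Across tables, with the limit on scaling above, control 1 differed by that much from the 4 other libraries in 1663 to 2273 genes and wild type 1 in 3549 to 3973, so neither library of the pair lay close to the rest. In the 5-library table control 3, wild type 2 and wild type 3 differed from each other in 46 to 66 genes, whereas control 2 differed from these 3 libraries in 406 to 416. The cells therefore have 1 wide contrast in the 4-library table and a narrow one in the 5-library table that leans on control 2. Of the 84 genes described, the 5-library difference turned sign without control 2 in 24, and in 42 others it kept its sign but shrank by more than 1.5 times.

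Over both tables no gene passed the threshold. limma, a linear model fitted across all genes with the group and the table as terms, called 0 of 11193 genes (0%) at a Benjamini-Hochberg adjusted p under 0.05, and the smallest adjusted p was 0.721. Before adjustment, 158 genes had p under 0.05 and lay higher on wild-type matrix (1.41%), and 134 lay lower (1.2%). The fit of recovered reads by limma-voom gave 0 calls as well, and its 302 genes under that unadjusted threshold split into 239 higher and 63 lower. The 95% interval of a single gene, not adjusted for the number of genes, reached a median of 0.47 to either side on the log2 scale. Most differences smaller than that could not be resolved with these 6 libraries. After adjustment much larger ones were not called either, such as 2.14 for LCN2 (limma adjusted p = 0.721). Within the 5-library table alone limma called 0 genes (0%), with 108 at an unadjusted p under 0.05 (0.965%), and limma-voom called 0 with 41 unadjusted. That count of 0 depended on control 2 and control 3, since limma called 12 genes without control 2 and 4584 without control 3. With the replicate number as a block it called 1 gene, the microRNA gene MIR503 at a difference of 2.04 (limma adjusted p = 0.0418), which was named after its values were seen. The labels do not say whether replicates were separate cultures, so every p rests on library-to-library spread that may be technical in origin. The pooled p also takes in how far the 2 tables disagree.

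The difference between wild type and control was of unlike size in the 2 tables. Wild type 1 lay at least 2-fold above control 1 in 872 genes (7.79%) and at least 2-fold below it in 990 (8.84%). In the 5-library table only 40 genes reached 2-fold, 23 higher and 17 lower, and 7 genes reached it in both tables in the same direction. The sign of the difference matched between the tables in 51.4% of genes. A limma interaction term between group and table called 421 genes at an adjusted p under 0.05, 160 with a more positive difference in the 4-library table (1.43%) and 261 with a more negative one (2.33%). All 421 were at least 2-fold apart between wild type 1 and control 1, with a median size of 1.79, while in the 5-library table that size was 0.09. There, 246 of the 421 went the other way by sign and 175 the same way. This count rests on the spread between the 4 libraries of the 5-library table, since each group had 1 library in the other. It was 5508 without control 2, 6335 without control 3, 11 without wild type 2 and 10 without wild type 3. With all 9 libraries in the fit, so that the R213A libraries added spread inside the 4-library table, 125 genes were called, 119 of them among the 421. R213A 1 and R213A 3, of that table, were at 3.15 and 47.6 FPKM for DDIT4 and at 87.2 and 24.6 for ADM. They lay closer for TYMS, at 23.3 and 32.8. Whether libraries vary equally in the 2 tables, as the interaction term assumes, was not tested.

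**Figure D1:**
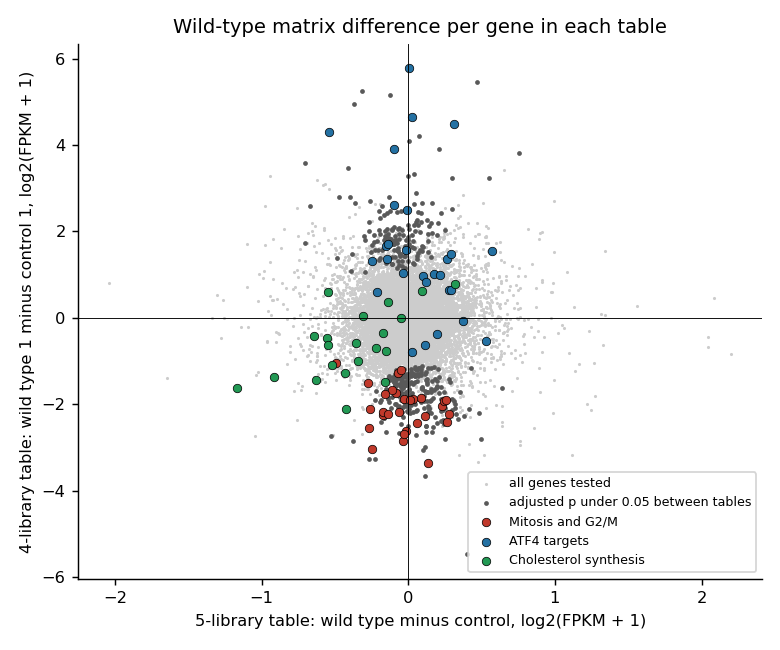
Each point is a gene, with the wild type minus control difference in log2(FPKM + 1) of the 5-library table on the horizontal axis and of the 4-library table on the vertical axis. ATF4 targets spread upward and all 29 mitosis genes lie below 0 on the vertical axis while both stay close to 0 on the horizontal one, and cholesterol synthesis genes lie mostly to the lower left.

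ATF4 targets lay mostly higher in wild type 1 than in control 1. ATF4 is a transcription factor that cells make when amino acids are short or unfolded protein builds up, and it drives amino acid import and synthesis. Of its 28 measured targets 17 were at least 2-fold higher in wild type 1 than in control 1 and 0 were at least 2-fold lower, with a median of 1.33 against -0.07 over all genes. In the 5-library table the median was 0.07, and 17 of the 28 lay higher. The interaction term called 11 of the 28, all more positive in the 4-library table, against 1.43% of all genes on that side, and 3 without wild type 2, 3 without wild type 3 and 3 with all 9 libraries.

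DDIT4 (ENSG00000168209, hg38 chromosome 10, 72273920 to 72276036, plus strand), an inhibitor of the growth kinase mTORC1, was at 1.48 FPKM in control 1 and at 135 in wild type 1. It was at 72.8 and 65.0 FPKM in control 2 and 3 and at 66.8 and 71.4 in wild type 2 and 3. Control 1 was the low library and the other 5 were at 65.0 FPKM or more, although levels set across tables may carry a separate scaling. The contrast within the 4-library table was 91.3-fold. R213A 1, of the same table, was at 3.15 FPKM and R213A 3 at 47.6. Wild type 1 exceeded control 1 by 5.78, the 5-library groups differed by 0.01, and these differed by 5.77 (limma interaction adjusted p = 0.0188). TRIB3, a pseudokinase induced by ATF4, had the same order, with 11.6 FPKM in control 1, 316 in wild type 1, and 60.1 to 67.8 in the other 4. CHAC1, which degrades glutathione, was at 1.40 FPKM in control 1, 52.8 in wild type 1, 11.9 and 21.7 in control 2 and 3 and 19.3 and 21.3 in wild type 2 and 3. SESN2, a stress-induced brake on mTORC1, was at 3.72, 69.9, 22.3, 16.9, 16.9 and 19.3 FPKM in the same order of libraries. The between-table difference was 4.62 for TRIB3, 4.17 for CHAC1 and 4.01 for SESN2 (limma interaction adjusted p = 0.0286, 0.0404 and 0.0394). In all 4 genes the 5-library groups differed by at most 0.32.

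The endoplasmic reticulum showed the same lean at a smaller size. Its chaperones fold secreted protein, and their genes are switched on when unfolded protein accumulates. Of 21 measured chaperone genes 11 were at least 2-fold higher in wild type 1 and 0 were lower by that much, with a median of 1.00. Between the 5-library groups 20 of 21 lay higher, and their median of 0.23 shrank to 0.02 without control 2, where 14 of 21 lay higher. HSPA5, the chaperone BiP, was at 173 FPKM in control 1 and 894 in wild type 1, at 318 and 500 in control 2 and 3, and at 485 and 536 in wild type 2 and 3. Control 2 was the low library of its table, and control 3 lay between the wild-type libraries. The pooled difference was 1.03 ± 0.45 (SE, limma adjusted p = 0.721), with 2.37 and 0.35 in the tables and 0.03 in the 5-library table without control 2. FKBP2, a prolyl isomerase of the same compartment, lay above control in both tables, at 27.2 against 102 FPKM in the 4-library table and at 20.9 and 30.6 against 31.2 and 35.0 in the other, where its difference of 0.37 became 0.11 without control 2. Genes of the sensors and of ER-associated degradation lay higher in 15 of 20 cases in each table. Without control 2 this was 10 of 20 in the 5-library table, and the median there went from 0.20 to 0.0086. EDEM2, which marks misfolded glycoproteins for removal, was at 11.1 and 48.1 FPKM in control 1 and wild type 1, and its difference changed by 1.78 between tables (limma interaction adjusted p = 0.0474). XBP1, whose spliced form drives chaperone genes, was at 18.3 and 59.3 FPKM there and at 67.5 to 73.6 FPKM in the 5-library table.

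The promoter of HSPA5 is shown because it carries the textbook ER stress element, CCAAT and CCACG with 9 bases between them. The stretch covers the 250 bases before the transcript start in RefSeq, build GRCh38.p14, read 5′ to 3′ on the gene's strand, with the matched letters in capitals.
HSPA5 (chr9:125241344-125241593, minus strand): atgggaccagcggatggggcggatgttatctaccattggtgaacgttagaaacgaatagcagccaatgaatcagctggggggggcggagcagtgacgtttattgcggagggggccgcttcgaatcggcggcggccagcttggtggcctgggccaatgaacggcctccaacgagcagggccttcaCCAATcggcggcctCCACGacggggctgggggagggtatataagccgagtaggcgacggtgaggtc
The element, searched on both strands of windows from 250 bases before to 50 after a start, was found in 5 of the 20 chaperone genes with a window (25%) and in 13 of the 8479 tested genes with one (0.153%). The amino acid response element TGATGNAA was found in 5 of 23 ATF4 targets (21.7%) and in 1.51% of all. A match is a description of the letters and not of binding.

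Inflammatory genes lay mostly higher on wild-type matrix, in 17 of 20 cases between wild type 1 and control 1 and in 14 of 20 in the other table. NF-kB is the transcription factor that answers to cytokines and cell damage, and its targets include chemokines that draw neutrophils. Of 20 measured genes 11 were at least 2-fold higher and 1 at least 2-fold lower in wild type 1, with a median of 1.17. The 5-library median was 0.12, and it stayed at 0.12 without control 2. In 6 of the 20 both wild-type libraries of the 5-library table lay above both controls and wild type 1 lay above control 1, against 7.42% of all genes tested. The 6 were BIRC3, CXCL1, CXCL2, ICAM1, NFKBIA and SLPI.

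CXCL1 (ENSG00000163739, hg38 chromosome 4, 73869393 to 73871242, plus strand), a neutrophil chemokine, was at 0.535 FPKM in control 1 and 20.7 in wild type 1. It was at 2.58 and 4.27 FPKM in control 2 and 3, below 6.30 and 6.37 in wild type 2 and 3. The groups did not overlap in the 5-library table, while the 4-library table holds 1 library of each and cannot show overlap. The pooled difference was 1.78 ± 0.60 (SE, limma adjusted p = 0.721), and the 5-library difference of 0.76 became 0.48 without control 2. R213A 2 was at 6.89 FPKM, as high as the wild-type libraries of its table. The difference was also 3.06 larger in the 4-library table (limma interaction adjusted p = 0.0404). Its neighbour CXCL2 had the same order, with 0.853 and 18.8 FPKM in the 4-library table and 6.17 and 11.1 against 13.6 and 13.7 in the other, a difference of 0.65 that became 0.28 without control 2. LCN2, an iron-binding neutrophil protein, was at 0.0334 FPKM (1 read) in control 1 and 44.8 FPKM (1384 reads) in wild type 1, and at 0.343, 1.54, 1.43 and 1.69 FPKM in control 2, control 3, wild type 2 and wild type 3. R213A 1 and R213A 3 were at 0.738 and 1.05 FPKM, so wild type 1 was the single high library of the 9. CXCL8, another neutrophil chemokine, had 0 reads in control 1 and 33 in wild type 1, against 286, 272 and 306 in control 3, wild type 2 and wild type 3 and 34 in control 2. Its 5-library difference of 0.98 became -0.05 without control 2, whereas that of CXCL1 stayed above 0.

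CXCL1 and CXCL2 lie close together on chromosome 4, and their upstream stretches are shown side by side because both hold the kappa B site GGAATTTCC at nearly the same distance from the start, at positions -78 and -77. They come from RefSeq build GRCh38.p14, 250 bases before each start, with the site in capitals.
CXCL1 (chr4:73869143-73869392, plus strand): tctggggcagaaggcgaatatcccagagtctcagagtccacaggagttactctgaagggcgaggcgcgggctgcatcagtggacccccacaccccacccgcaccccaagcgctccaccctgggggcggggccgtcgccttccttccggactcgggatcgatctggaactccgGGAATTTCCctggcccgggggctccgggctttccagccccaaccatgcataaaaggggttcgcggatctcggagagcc
CXCL2 (chr4:74099196-74099445, minus strand): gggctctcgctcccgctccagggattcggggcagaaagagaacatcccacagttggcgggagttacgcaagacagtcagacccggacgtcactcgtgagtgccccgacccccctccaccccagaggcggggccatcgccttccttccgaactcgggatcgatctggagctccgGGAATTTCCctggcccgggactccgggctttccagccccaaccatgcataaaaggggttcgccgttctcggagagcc
The site was found on either strand in 8 of the 15 NF-kB genes with a window (53.3%), CXCL8 among them, and in 0.425% of all tested genes with one.

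Single genes of growth arrest and iron storage were higher in wild type 1 than in control 1, while their lists were not. Of 23 cell cycle inhibitors and p53 targets 10 lay higher and 13 lower there, with a median of -0.25, and of 15 genes of iron handling and ferroptosis 6 lay higher and 9 lower, with a median of -0.11. CDKN1A, the inhibitor p21 of cyclin-dependent kinases, was at 6.64 FPKM in control 1 and 75.7 in wild type 1, against 48.4 and 38.3 in control 2 and 3 and 42.4 and 46.4 in wild type 2 and 3. As with DDIT4, control 1 was the low library. GDF15, a stress hormone, was at 0.869 and 56.4 FPKM in the 4-library table and at 1.05 to 2.16 FPKM in the other, so here wild type 1 was the high one. Their between-table differences were 3.28 and 5.31 (limma interaction adjusted p = 0.0394 for each). FTH1, the ferritin heavy chain, was at 128 and 597 FPKM in control 1 and wild type 1 and at 103, 88.5, 79.3 and 79.5 FPKM in control 2, control 3, wild type 2 and wild type 3. Its between-table difference was 2.47 (limma interaction adjusted p = 0.0394). Ferritin genes have many near-identical processed copies, so the split of reads among them is uncertain. Among targets of NRF2, the factor of the antioxidant response, 5 of 22 (22.7%) lay on the higher side in both tables, against 7.42% of all genes. OSGIN1, which restrains growth under oxidative stress, was at 4.33 and 22.2 FPKM in the 4-library table and at 3.47 and 5.99 against 6.36 and 7.81 in the other. AIFM2, a guard against ferroptosis, was at 19.6 and 47.4 FPKM and at 14.3 and 25.8 against 27.1 and 29.9. Without control 2 their 5-library differences of 0.53 and 0.54 became 0.205 and 0.137. HMOX1, the haem oxygenase driven by the same factor, had control 2 as its highest library, at 920 FPKM against 305, 344 and 344 in control 3, wild type 2 and wild type 3, and was at 33.4 and 312 in the 4-library table.

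Cell division genes were lower in wild type 1 than in control 1. Of 29 measured genes of mitosis and G2/M all 29 were at least 2-fold lower in wild type 1 than in control 1, with a median of -2.11. Of the same 29, 18 lay lower in the 5-library table, where the median was -0.03, or -0.05 without control 2. The interaction term called 20 of the 29, against 2.33% of all genes on that side, but 0 without wild type 2, 0 without wild type 3 and 15 with all 9 libraries. Of 33 genes of DNA replication and S phase 26 were at least 2-fold lower in wild type 1, with a median of -1.55. The interaction term called 15 of the 33 (45.5%), against 421 of all 11193 genes. That count was not repeated for this list with libraries left out. The 5-library median of the 33 was 0.18, or 0.04 without control 2.

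TOP2A (ENSG00000131747, hg38 chromosome 17, 40388516 to 40417950, minus strand), which untangles DNA ahead of division, was at 60.9 FPKM in control 1 and 6.52 in wild type 1, at 56.6 and 44.3 in control 2 and 3, and at 44.6 and 39.5 in wild type 2 and 3. Wild type 1 was the low library and the 5-library groups overlapped. MKI67, the proliferation marker Ki-67, was at 31.6 and 4.06 FPKM in the 4-library table and at 10.3, 11.6, 12.4 and 9.11 FPKM in control 2, control 3, wild type 2 and wild type 3. KIF20A, a kinesin of the last step of division, was at 34.3 and 2.40 FPKM and then at 10.3, 16.1, 15.4 and 13.2. The 14.2-fold contrast of KIF20A in the 4-library table had no counterpart in the 5-library table, where its difference was 0.13. CCNA2, the cyclin that drives S phase and entry into mitosis, was at 51.2 and 6.23 FPKM and then at 25.9, 23.1, 23.6 and 24.1. DLGAP5, a spindle protein, was lower in both tables, at 35.9 and 5.29 FPKM and, without overlap, at 25.2 and 21.9 against 20.5 and 18.2. The between-table differences were -2.79 for TOP2A, -2.66 for MKI67, -3.51 for KIF20A, -2.82 for CCNA2 and -2.28 for DLGAP5 (limma interaction adjusted p = 0.0394 for TOP2A, KIF20A, CCNA2 and DLGAP5, and 0.0400 for MKI67). TYMS, which makes thymidylate for DNA, was at 43.1 and 8.65 FPKM in the 4-library table and at 15.6, 20.3, 17.7 and 18.0 in the other. RRM2, the ribonucleotide reductase subunit, was at 27.9 and 4.35 and then at 10.9, 13, 13.7 and 13.9 FPKM. Their between-table differences were -2.19 and -2.62 (limma interaction adjusted p = 0.0404 and 0.0394). R213A 1 and 3, from the same table as wild type 1, were at 23.3 and 32.8 FPKM for TYMS and at 23.8 and 19.7 for RRM2, between control 1 and wild type 1. For every gene named in this paragraph control 1 was the highest and wild type 1 the lowest of the 6 libraries, although levels set across tables are descriptive.

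Promoters of this group are shown for TOP2A and DLGAP5, which moved together in the 4-library table and hold CHR elements. The CHR, searched as TTTGAA or TTCGAA on both strands, is a motif through which cell cycle genes are held off outside of division. The stretches cover 250 bases before each start (RefSeq, GRCh38.p14), with matches in capitals.
TOP2A (chr17:40417897-40418146, minus strand): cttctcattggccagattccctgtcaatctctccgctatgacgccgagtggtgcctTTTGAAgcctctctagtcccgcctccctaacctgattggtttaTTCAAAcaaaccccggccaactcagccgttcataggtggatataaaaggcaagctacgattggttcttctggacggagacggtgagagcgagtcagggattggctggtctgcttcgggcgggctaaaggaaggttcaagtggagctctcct
DLGAP5 (chr14:55191586-55191835, minus strand): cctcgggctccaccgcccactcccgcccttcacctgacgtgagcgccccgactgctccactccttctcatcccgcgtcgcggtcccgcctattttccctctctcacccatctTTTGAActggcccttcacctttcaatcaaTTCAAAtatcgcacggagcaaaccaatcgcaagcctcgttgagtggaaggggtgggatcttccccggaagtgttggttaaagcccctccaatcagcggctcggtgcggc
A CHR was found in 17 of the 24 mitosis genes with a window (70.8%) and in 10.6% of all tested genes with one.

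**Figure D2:**
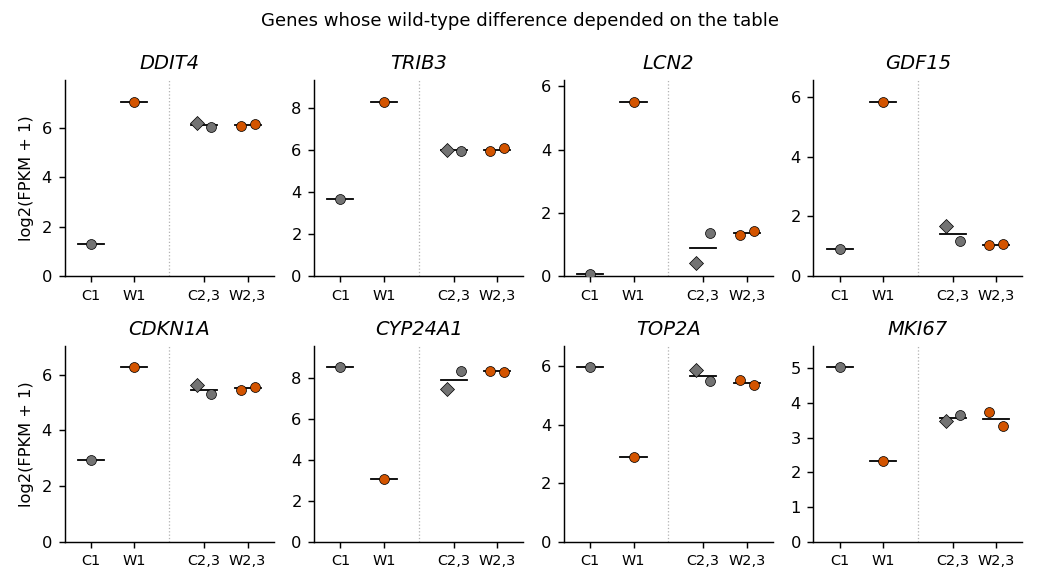
Expression of 8 genes in each of the 6 libraries as log2(FPKM + 1), with control in grey and wild type in orange, the 4-library table left and the 5-library table right of the dotted line, control 2 as a diamond and bars for group means. Control 1 and wild type 1 are far apart in every panel, while the 4 libraries of the 5-library table sit closer together. For LCN2 and CYP24A1 control 2 lies below the rest of its table.

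Large single contrasts of the 4-library table lay in genes of several kinds. UPP1, a uridine phosphorylase, was at 16.2 FPKM in control 1 and 657 in wild type 1, a 40.6-fold contrast, and at 96.4, 52.8, 53.6 and 61.2 in control 2, control 3, wild type 2 and wild type 3. OSCAR, a receptor that binds collagen on bone and immune cells, was at 3.51 and 159 FPKM and at 18.5, 12, 13.1 and 14.1. For both genes control 1 was the lowest and wild type 1 the highest of the 6 libraries. CYP24A1 (ENSG00000019186, hg38 chromosome 20, 54153449 to 54173973, minus strand), the enzyme that inactivates vitamin D, was 50.7-fold lower in wild type 1 than in control 1, at 7.27 against 368 FPKM. It was at 177, 331, 327 and 314 FPKM in the 5-library table, so wild type 1 stood alone. ADM, a vasodilator peptide, was at 88.3 and 6.09 FPKM and then at 38.1, 35.9, 38.3 and 42.0. TLE4, a transcriptional corepressor, was at 25.5 and 1.74 FPKM and at 29.0, 23.3, 22.4 and 21.8. SMC4, a condensin subunit, was at 21.4 and 1.33 FPKM and at 33.3, 24.9, 24.7 and 22.8, and R213A 1 was as low as wild type 1, at 1.31. The between-table differences were 5.57 for UPP1, 5.28 for OSCAR, -5.88 for CYP24A1, -3.77 for ADM, -3.05 for TLE4 and -2.99 for SMC4 (limma interaction adjusted p = 0.0390 for ADM and 0.0394 for the others).

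Among immediate early genes, which answer growth factor signals within minutes, 12 of 30 were at least 2-fold higher in wild type 1 and 0 at least 2-fold lower. Over all genes these shares were 7.79% and 8.84%. The 5-library groups leaned the other way, with 20 of the 30 lower on wild-type matrix and a median of -0.12, or 0.03 without control 2. KLF2, a transcription factor known as a flow sensor of endothelium, was at 1.74 and 46.2 FPKM in the 4-library table and at 5.16, 4.48, 4.02 and 5.80 in the other. JUNB, an AP-1 subunit, was at 1.93 and 19.4 FPKM and at 33.5, 19.4, 18.8 and 19.5, so control 1 was the lowest and control 2 the highest of the 6. Their between-table differences were 4.10 and 3.19 (limma interaction adjusted p = 0.0394 and 0.0464). EGR1, another of the group, was at 1.38 and 19.4 FPKM and at 64.9, 27.3, 25.1 and 31.4, again with control 1 lowest and control 2 highest. R213A 1 and 3, of the 4-library table, were at 3.69 and 5.95 FPKM for JUNB and at 0.869 and 2.96 for EGR1. In both genes they lay nearer to control 1 than to wild type 1.

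Lists of matrix sensing differed between the tables. Of 24 genes of focal adhesion and actin linkage 15 lay lower in wild type 1 than in control 1. Between the 5-library groups 3 of the 24 lay higher, or 8 without control 2. A list of 11 receptor genes held collagen receptors and also chains of laminin and vitronectin receptors. Of these, 6 lay higher in wild type 1 at a median of 0.35. Between the 5-library groups 10 of the 11 lay lower, and their median of -0.22 became -0.05 without control 2. Of 20 YAP/TAZ targets 9 were at least 2-fold lower and 1 at least 2-fold higher in wild type 1, with a median of -0.93. The 5-library median was -0.04, with 8 of 20 higher. The interaction term called 6 of the 20, all more negative in the 4-library table, against 2.33% of all genes on that side, and 0 without wild type 2, 0 without wild type 3 and 2 with all 9 libraries. CCN1, a matricellular protein and the best known target, was at 434 FPKM in control 1 and 66.6 in wild type 1. It was at 1325 and 798 FPKM in control 2 and 3 and at 816 and 836 in wild type 2 and 3, so the 5-library groups differed through control 2 alone (-0.32, and 0.05 without it). ANKRD1, a nuclear and sarcomeric adaptor, was at 67.8 and 15.1 FPKM in the 4-library table and at 86.6, 71.4, 70.2 and 75 in the other. IGFBP3, which binds insulin-like growth factors, was at 30.6 and 4.03 FPKM and at 1.12 to 1.69 FPKM in the 5-library table. The between-table differences were -1.98 for ANKRD1 and -2.77 for IGFBP3 (limma interaction adjusted p = 0.0404 and 0.0394). NUAK2, a kinase that acts on myosin, had the same difference of -0.65 in both tables, at 15.9 and 9.74 FPKM and at 25.3 and 13.1 against 11.2 and 11.3, and -0.20 in the 5-library table without control 2. The actin cable gene TPM1 was at 23.5 and 3.82 FPKM and at 7.17, 11.2, 12 and 11.2, with a between-table difference of -2.68 (limma interaction adjusted p = 0.0462). VCL, the vinculin that links integrins to actin, was at 37.5 and 8.62 FPKM and at 74.5, 51.9, 53.9 and 50.8.

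The ANKRD1 promoter is shown because it holds the TEAD motif GGAATG more than once in the 250 bases before its start (RefSeq, GRCh38.p14, matches in capitals).
ANKRD1 (chr10:90921088-90921337, minus strand): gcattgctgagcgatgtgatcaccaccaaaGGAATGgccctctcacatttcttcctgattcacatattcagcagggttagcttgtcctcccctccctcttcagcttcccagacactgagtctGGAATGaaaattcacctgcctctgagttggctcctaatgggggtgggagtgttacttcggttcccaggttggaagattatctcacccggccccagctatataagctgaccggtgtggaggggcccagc
That motif was found in 6 of the 14 YAP/TAZ targets with a window (42.9%) and in 10.5% of all tested genes with one.

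Collagen receptors and the other matrix receptors of that list showed no difference that passed the test. ITGB1, the beta chain shared by the collagen-binding integrins, was at 100.2 FPKM in control 1 and 62.2 in wild type 1, at 295 and 225 in control 2 and 3, and at 223 and 211 in wild type 2 and 3. The wild-type libraries lay lower in both tables, and in the 5-library table the gap between the nearest control and wild type was small (a difference of -0.05 without control 2). ITGA2, its partner for collagen, was at 1.37 and 1.29 FPKM in the 4-library table and at 8.48, 9.59, 10.1 and 8.70 in the other, with a pooled difference of 0.02 and a 95% interval from -0.34 to 0.38. The discoidin receptor gene DDR1 was at 2.96 and 4.05 FPKM and at 5.38, 4.16, 4.26 and 3.61, with a pooled difference of -0.03 and an interval from -0.50 to 0.43. These intervals leave room for differences of about that size in either direction. ITGA6, a laminin receptor chain, was at 53.5 and 20.2 FPKM and at 139, 55.4, 57.8 and 54.1, with control 2 as the high library. ITGAV, a chain of the vitronectin receptors, was at 8.59 and 4.03 FPKM and lay lower without overlap in the 5-library table as well, at 41.6 and 37.8 against 34.6 and 34.3, with -0.20, or -0.13 without control 2.

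Matrix genes went in several directions. TIMP1, an inhibitor of matrix metalloproteinases, was at 127 FPKM in control 1 and 892 in wild type 1, and at 123, 85.3, 92.5 and 94.5 in control 2, control 3, wild type 2 and wild type 3. CTSL, a cathepsin that lysosomes also release, was at 47.9 and 215 FPKM and at 63.8 to 72.9 in the other table. Their between-table differences were 2.94 and 2.08 (limma interaction adjusted p = 0.0404 and 0.0394). P4HA2, which hydroxylates collagen prolines, lay higher in both tables, at 0.972 and 4.69 FPKM and at 2.83 and 3.70 against 3.96 and 4.05, with 0.24 in the second, or 0.089 without control 2. HSPG2, the basement membrane proteoglycan perlecan, was at 5.39 and 1.34 FPKM and at 16.7 and 10.6 against 10.9 and 7.74, with -0.49, or -0.19 without control 2. ADAMTSL4, a secreted protein of elastic microfibrils, lay lower in both tables, at 27.2 and 9.29 FPKM and at 47.4 and 26.0 against 23.8 and 22, with -0.60 in the second, or -0.18 without control 2. TGFBR3, the TGF-beta coreceptor betaglycan, did too, at 6.11 and 0.915 FPKM and at 11.4 and 9.66 against 8.85 and 8.81, and its between-table difference was -1.67 (limma interaction adjusted p = 0.0464). COL12A1, a fibril-associated collagen, was at 5.73 and 2.06 FPKM and at 8.59, 7.74, 7.93 and 5.78.

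In lipid synthesis genes control 2 stood far from the other libraries of its table. Sterol regulatory element binding proteins switch on the enzymes of cholesterol and fatty acid synthesis when sterols run low. Of 21 cholesterol synthesis genes 7 were at least 2-fold lower and 0 at least 2-fold higher in wild type 1, with a median of -0.63. The 5-library median was -0.36, and -0.01 without control 2, where 10 of 21 lay higher. In 8 of the 21 (38.1%) the wild-type libraries lay lower in both tables, against 9.24% of all genes, and the interaction term called 0 of the 21. HMGCS1 (ENSG00000112972, hg38 chromosome 5, 43289395 to 43313512, minus strand), which makes HMG-CoA, was at 13.7 FPKM in control 1 and 3.73 in wild type 1. It was at 394 FPKM in control 2 but at 89.8 in control 3, close to 82.8 and 83.8 in wild type 2 and 3. Control 3 was thus the lower of its group but still above both wild-type libraries. The pooled difference was -1.32 ± 0.51 (SE, limma adjusted p = 0.721), with -1.64 in the 4-library table and -1.17 in the other, or -0.11 without control 2. INSIG1, the sterol sensor's anchor, was at 12.2 and 3.43 FPKM and at 337 and 129 against 125 and 127. FASN, the fatty acid synthase, was at 38.5 and 11.3 FPKM and at 497 and 211 against 201 and 189. Both kept the order of HMGCS1, with control 2 far above control 3. Without control 2 the 5-library difference of INSIG1 went from -0.72 to -0.036 and that of FASN from -0.73 to -0.11. TXNIP, a glucose-regulated inhibitor of thioredoxin, had control 2 at the other end, at 12.8 FPKM against 64.2, 59.3 and 57.7 in control 3, wild type 2 and wild type 3, and was at 3.63 and 12.2 in the 4-library table. Its 5-library difference of 0.99 turned to -0.13 without control 2. The sterol response element core CACCCCAC was in 0 of the 16 cholesterol synthesis promoters with a window and in 2.49% of all, which says only that these letters are not in those windows.

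**Figure D3:**
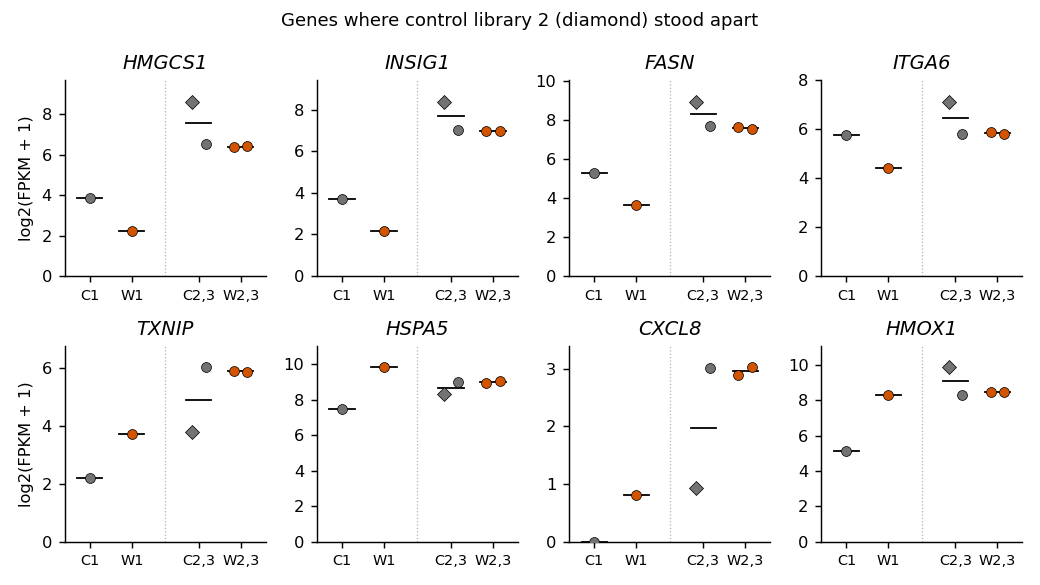
Expression of 8 genes in each of the 6 libraries as log2(FPKM + 1), with symbols as in the plot of table-dependent genes and control 2 as a diamond. In each panel control 2 sits away from control 3, which lies next to wild type 2 and 3.

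Transcript classes that do not encode one pathway also leaned with wild type 1. Of 75 cytosolic ribosomal protein genes 74 lay higher in wild type 1 than in control 1, with a median of 0.75, whereas 63 of 75 lay lower in the other table, at a median of -0.07, or 0.09 without control 2. RPS12, a small-subunit protein with many near-identical copies in the genome, was at 1305 and 3430 FPKM in control 1 and wild type 1. Of 14 small nucleolar RNA host genes 8 were at least 2-fold higher in wild type 1. GAS5, a host transcript that accumulates when translation slows, was at 43.0 and 284 FPKM and at 106, 62.6, 64.7 and 71.3, with a between-table difference of 2.96 (limma interaction adjusted p = 0.0495). All 13 mitochondrial genome transcripts lay lower in wild type 1, with a median of -0.80. In the 5-library table their median was 0.22, and -0.20 once control 2 was left out. Of 31 splicing factor genes 30 lay lower in wild type 1, with a median of -0.77, and 8 (25.8%) lay lower in both tables, against 9.24% of all genes. RBM25, a splicing regulator, was at 11 and 3.64 FPKM and at 13.8 and 8.05 against 7.33 and 7.81, with -0.44 in the second, or -0.078 without control 2. Heat shock genes went against the ER chaperones in wild type 1, with 20 of 22 lower than in control 1 and a median of -0.62. The 5-library groups did not show this. There, 13 of the 22 lay higher on wild-type matrix at a median of 0.11, or 17 at a median of 0.06 without control 2. HSP90AA1, the inducible cytosolic HSP90, was at 812 and 311 FPKM and at 644, 501, 547 and 535. Gene length moved with these values: across the 11193 genes, Spearman's rho with the difference was -0.27 for the 4-library table and -0.15 for the other, a description over genes that share libraries. Genes in the lowest quartile of length, up to 2790 bases, had a median of 0.27 in the 4-library table and those in the highest, from 7112 bases, a median of -0.29. The part of length in the list medians was not tested.

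**Figure D4:**
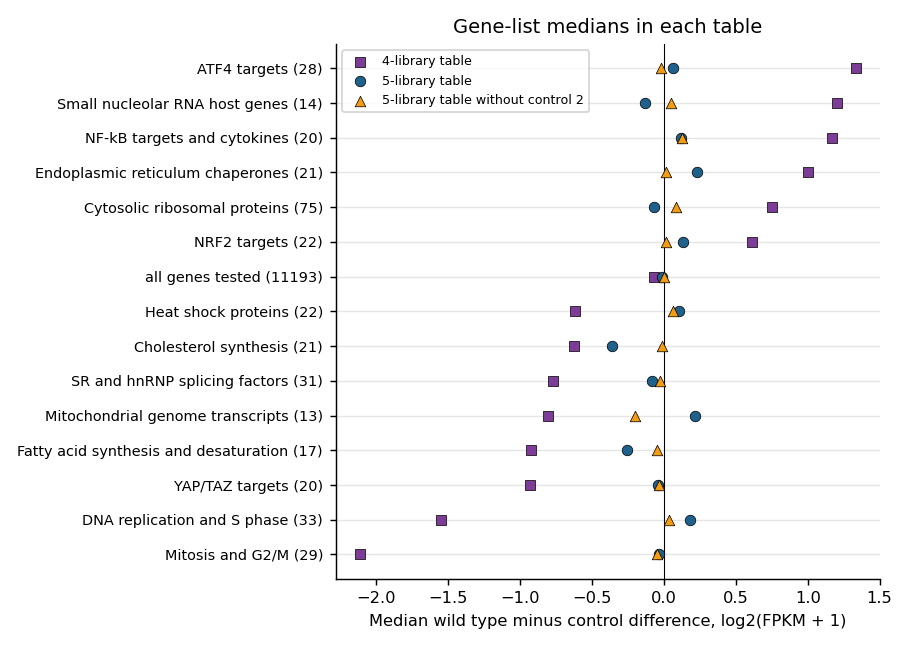
Median wild type minus control difference in log2(FPKM + 1) of 14 gene lists and of all genes tested, with the number of measured genes in brackets. Squares are the 4-library table, circles the 5-library table and triangles the 5-library table without control 2. Squares run from -2.11 for mitosis to 1.33 for ATF4 targets, while the triangles lie between -0.20 and 0.12.

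A smaller set of genes lay on the same side of control in both tables. In 830 genes (7.42%) wild type 1 was above control 1 and both other wild-type libraries were above both other controls, and in 1034 (9.24%) the order was reversed throughout. Together these 1864 genes were 16.7% of those tested, and 57 of them were among the 421 called by the interaction term. A random order of the libraries within each table would also put about 16.7% of genes in such a set. The count by itself is therefore no result about the matrix. For most the separation was slight: the smaller of the gaps in the 2 tables had a median size of 0.05, and it reached 0.2 in 54 higher and 25 lower genes. No gene passed the threshold of the pooled test, so this is an account of order and size. Some lists held more of these genes than the background on their side. On the higher side were 9 of 29 genes of lysosome and autophagy (31.0%), 8 of 29 proteasome subunits (27.6%), 5 of 21 interferon-induced genes (23.8%) and 10 of 53 subunits of the respiratory chain and ATP synthase (18.9%). CTSD, a lysosomal protease, was at 31.7 and 121 FPKM in the 4-library table and at 28.7, 38.8, 38.2 and 41.2 in the other, so it overlapped. PSMC4, an ATPase of the proteasome cap, was at 59.9 and 83.1 FPKM and at 35.1 and 44.3 against 49.5 and 56.8, with 0.46 and 0.42 in the tables and 0.25 in the second without control 2. On the lower side were 4 of 10 genes of insulin and FOXO feedback, namely FOXO3, IGF1R, INSR and IRS2, and 5 of 24 of focal adhesion and actin linkage (20.8%).

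SLPI (ENSG00000124107, hg38 chromosome 20, 45252239 to 45254564, minus strand), a secreted inhibitor of neutrophil elastase, had the smallest p among same-side protein-coding genes on placed chromosomes that lay higher. It was at 0.716 FPKM in control 1 and 3.04 in wild type 1, at 0.204 and 0.749 in control 2 and 3, and at 2.15 and 1.16 in wild type 2 and 3. Every wild-type library was above every control library, on few reads (2 to 8 in control and 13 to 35 in wild type). The pooled difference was 0.97 ± 0.24 (SE, limma adjusted p = 0.721), and the 5-library difference was 0.84, or 0.57 without control 2. SIRT6 (ENSG00000077463, hg38 chromosome 19, 4174109 to 4182604, minus strand), a chromatin deacylase with roles in DNA repair and glucose metabolism, was at 6.77 and 15.9 FPKM in the 4-library table and at 7.60 and 8.87 against 10.4 and 12.5 in the other. It was 0.66 ± 0.20 higher (SE, limma adjusted p = 0.721), with 0.33 in the 5-library table without control 2. SWSAP1, which takes part in homologous recombination, was at 0.918 and 2.37 FPKM and at 0.796 and 0.862 against 1.52 and 1.38, again with all wild-type above all control libraries. Its 5-library difference hardly moved without control 2, from 0.42 to 0.40. PLAAT1, a phospholipase and acyltransferase, was at 3.33 and 6.28 FPKM and at 0.990 and 1.34 against 1.87 and 2.04. TTLL1, a tubulin glutamylase, was at 1.10 and 4.32 FPKM and at 1.57 and 1.50 against 2.23 and 2.21, and its 5-library difference was 0.35, or 0.36 without control 2. CAMK2N2, an inhibitor of the kinase CaMKII, was at 2.90 and 3.95 FPKM and at 2.82 and 4.67 against 6.54 and 6.18. SYP, a vesicle membrane protein, was at 0.297 and 1.03 FPKM and at 2.21 and 4.29 against 5.96 and 5.35. R213A 2, of the same 5-library table, was at 5.01 FPKM for SYP and 0.576 for SLPI. EPCAM was at 2.31 and 6.57 FPKM and at 3.99 and 4.88 against 6.05 and 5.21, above control in both tables. Without control 2 the 5-library difference went from 0.66 to 0.38 for CAMK2N2, from 0.69 to 0.33 for SYP and from 0.29 to 0.17 for EPCAM.

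On the lower side UCP2 (ENSG00000175567, hg38 chromosome 11, 73974667 to 73983307, minus strand), a carrier of the inner mitochondrial membrane, was at 41.3 FPKM in control 1 and 19.96 in wild type 1, and at 20.9 and 11.1 in control 2 and 3 against 9.93 and 8.65 in wild type 2 and 3. The pooled difference was -0.78 ± 0.25 (SE, limma adjusted p = 0.721), with -0.24 in the 5-library table without control 2. F2R (ENSG00000181104, hg38 chromosome 5, 76716043 to 76735781, plus strand), the thrombin receptor PAR1, which matrix metalloproteinases can also cleave, was at 3.00 and 1.13 FPKM and at 8.78 and 7.14 against 6.01 and 5.81. Its pooled difference was -0.55 ± 0.18 (SE, limma adjusted p = 0.721). RBBP5, a core subunit of the complexes that methylate histone H3 lysine 4, was at 6.84 and 4.70 FPKM and at 10.7 and 9.42 against 7.81 and 7.82. It differed by a like amount in the tables, -0.46 and -0.32, and by -0.24 in the second without control 2. COQ3, a methyltransferase of ubiquinone synthesis, was at 12.6 and 9.44 FPKM and at 2.92 and 1.19 against 0.439 and 0.763. RAD54L, a motor of homologous recombination, was at 8.35 and 2.79 FPKM and at 4.51 and 3.69 against 2.92 and 3.03. NUCKS1, a chromatin protein, was at 104 and 40.2 FPKM and at 71.2 and 52.6 against 48.3 and 44.6. H1-2, a linker histone, was at 22.6 and 19.7 FPKM and at 44.8 and 37.0 against 30.8 and 30.8, a small difference in the same direction in both tables. Without control 2 the 5-library difference went from -0.37 to -0.24 for F2R, from -0.88 to -0.46 for COQ3, from -0.39 to -0.18 for NUCKS1 and from -0.39 to -0.26 for H1-2.

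**Figure D5:**
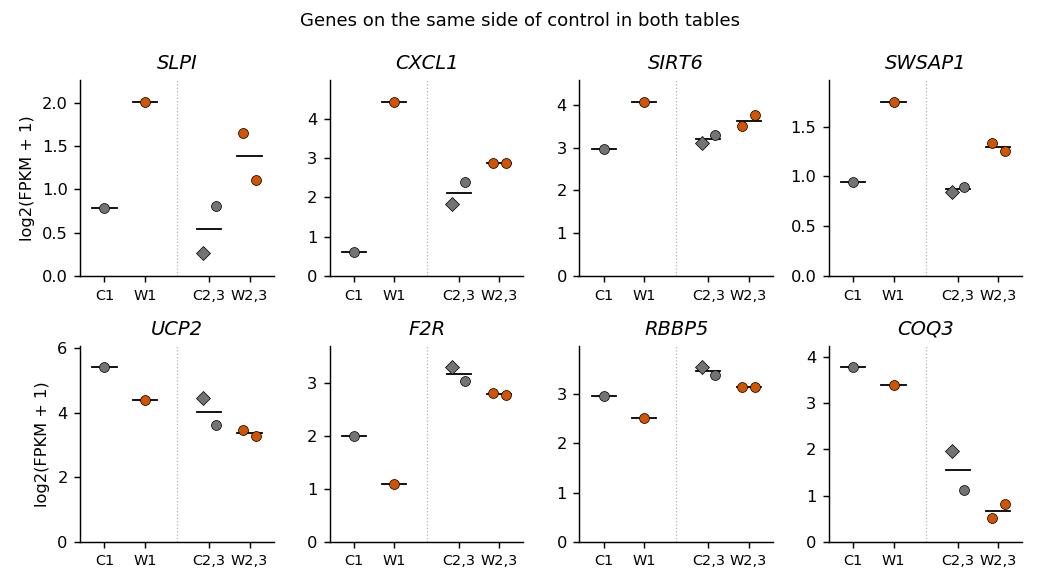
Expression of 8 genes in each of the 6 libraries as log2(FPKM + 1), with control in grey and wild type in orange, the 4-library table left and the 5-library table right of the dotted line, and control 2 as a diamond. In each panel the wild-type libraries lie on the same side of the controls in both tables. For SLPI, CXCL1, SIRT6 and SWSAP1 every wild-type library lies above every control.

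Within the 5-library table the protein-coding gene with the smallest p was SMN1, a factor of spliceosome assembly, which went the other way in the 4-library table. It was at 10.1 and 13.6 FPKM in control 2 and 3 and at 6.04 and 5.25 in wild type 2 and 3, and at 7.80 and 11.5 in control 1 and wild type 1. The 5-library difference was -0.94 (limma adjusted p = 0.869) and -1.14 without control 2, where it was among the 12 genes called (limma adjusted p = 0.0380). Its copy SMN2 is nearly identical, so these reads cannot be assigned to SMN1 with certainty. R213A 2 was at 7.08 FPKM. The other 11 genes called without control 2 were microRNA, small RNA or pseudogene loci and an unnamed transcript. In bulk RNA fewer cells of a kind and less RNA per cell cannot be told apart, which holds for every value above.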

How the data were processed

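RNA was taken from PaTu 8988t cells with TRIzol and made into stranded mRNA libraries with an Illumina TruSeq kit, per the labels' protocols. The authors deposited FPKM values per gene and library in 2 tables with the same 58735 genes and gene lengths, and 0 columns were left unmapped. Per the submitters' processing notes the build was hg38 and bcl2fastq was used. Aligner, counter, strand setting and annotation: not given in the sources used here. Values of antisense pairs and of near-identical genes are therefore uncertain. Symbols were matched by Ensembl identifier for 58207 genes.

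FPKM values are not counts, so log2(FPKM + 1) was fitted with limma 3.58.1 in R 4.3.3 with a mean-variance trend over the 6 libraries. The group and the table were terms, which left 3 residual degrees of freedom. The pooled estimate weights the 5-library difference 2 to 1 over the 4-library difference. The 5-library table alone and the interaction of group and table left 2 degrees of freedom each, and in the interaction the lone libraries of the 4-library table are assumed to vary like the others. The Benjamini-Hochberg adjustment ran over all 11193 genes, with calls at an adjusted p under 0.05. Multiplying FPKM by gene length gave whole reads, within 0.01, for 100% of values, and limma-voom on those reads was an alternative. The library size that the FPKM values imply was 0.902 times the recovered reads in control 2 and 1.03 times in control 3. It was 1.09 times in control 1 and 1.02 to 1.06 times in the wild-type libraries. The limma-voom fits used the recovered totals instead. The pipeline was tested on simulated data. Intervals and standard errors of the pooled fit cover the spread between libraries and also the disagreement of the 2 within-table differences. For DDIT4, with 5.78 and 0.01 in the tables, the pooled standard error was 1.09.

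Replicate numbers were checked for pairing: same-numbered control and wild-type libraries deviated together, with correlations of 0.60, 0.33 and 0.57 across genes. That pairing comes from the table each number sits in, since within the 5-library table the correlation was 0.03.

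Genes were named by a rule, among protein-coding genes on placed chromosomes: up to 10 per direction with the smallest p among same-side genes, 6 with the widest smaller gap, 6 with the largest 4-library difference, 6 with the smallest 5-library p, up to 4 per list by pooled size, and 15 fixed genes. The text names some of these, with functions a reader would know. Same-side members given beside a list count were named after their values were seen. The comparison, the gene lists and the rule were chosen with earlier results of these data known. Promoter windows come from RefSeq (GRCh38.p14), which held 8479 of the tested genes, with the first listed start used. Alternatives used pseudocounts of 0.1 and 0.5, no filter or a mean of at least 5 FPKM, quantile or median-of-ratios scaling, no table term, a replicate block, all 9 libraries, no trend, and each library left out in turn. The interaction fit over all 9 libraries and the limma-voom fits of the 5-library table and of the interaction were added after seeing the data.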

Additional observations from a re-analysis of the deposited data

Results flagged for a closer look

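A limma interaction term asked whether the wild type minus control difference was the same in the 4-library and the 5-library table. At an adjusted p under 0.05 it called 125 genes with all 9 libraries fitted, and 421 with the 6 libraries compared here. The number depends on the libraries of the 5-library table, from 10 without wild type 3 to 6335 without control 3. The differences of these differences (4-library minus 5-library, log2(FPKM + 1)) were as follows for the genes described here.

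Of these single genes, the following were more positive in the 4-library table, by 5.77 for DDIT4, 5.31 for GDF15, 4.999 for LCN2, 4.62 for TRIB3, 4.17 for CHAC1, 4.10 for KLF2, 4.01 for SESN2, 3.28 for CDKN1A, 3.19 for JUNB and 3.06 for CXCL1. UPP1 and OSCAR were at 5.57 and 5.28, GAS5 at 2.96, TIMP1 at 2.94, FTH1 at 2.47 and CTSL at 2.08. EDEM2 was at 1.78 and XBP1 at 1.65. More negative there were, among genes of cell division, the differences at -3.51 for KIF20A, -2.99 for SMC4, -2.82 for CCNA2, -2.79 for TOP2A, -2.66 for MKI67, -2.62 for RRM2, -2.28 for DLGAP5 and -2.19 for TYMS. CYP24A1 was at -5.88, ADM at -3.77, TLE4 at -3.05, IGFBP3 at -2.77, TPM1 at -2.68, ANKRD1 at -1.98 and TGFBR3 at -1.67. Each group had 1 library in the 4-library table, so the contrast and those libraries cannot be told apart.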

How the results depend on the processing

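Over both tables limma called 0 genes under each of the 17 alternatives tried, the replicate block included (0 genes, with 217 at an unadjusted p under 0.05), and without any 1 library (0 to 0). For the 5-library table the replicate block, a paired fit, called 1 gene, and leaving out 1 library gave 0 to 4584. With a pseudocount of 0.1, 2851 genes differed 2-fold between wild type 1 and control 1. Genes on the same side in both tables numbered 3346 with no filter and 1149 with a mean of at least 5 FPKM. The interaction term called 711 genes at that higher filter, 125 with all 9 libraries and 10 to 6335 without 1 library. The filters change how many genes are tested; the cause of the other changes was not tested.

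Of the 84 genes described, none passed the threshold of the pooled fit over both tables under any alternative to it, and 61 kept the sign of the pooled difference throughout. DDR1 turned to 0.0132 with limma-voom and ran from -0.22 to 0.11 without 1 library. The others that turned did so only without 1 library. Higher in the pooled fit were SESN2 (-0.10 to 1.73), XBP1 (-0.00803 to 0.73), GDF15 (-0.37 to 2.05), FTH1 (-0.27 to 0.86), HMOX1 (-0.62 to 1.46), JUNB (-0.40 to 1.19), EGR1 (-0.57 to 1.35), TIMP1 (-0.13 to 1.28), RPS12 (-0.00386 to 0.67), GAS5 (-0.26 to 1.22), UPP1 (-0.31 to 2.32), OSCAR (-0.13 to 2.30), LGALS1 (-0.0874 to 0.91) and ITGA2 (-0.0483 to 0.0645). Lower were KIF20A (-1.54 to 0.13), TYMS (-1.04 to 0.00107), RRM2 (-0.999 to 0.19), IGFBP3 (-1.16 to 0.12), TPM1 (-0.98 to 0.34), CYP24A1 (-2.38 to 0.40), ADM (-1.54 to 0.12) and KRT80 (-1.43 to 0.52). With 3 libraries a group, the depth of 17160420 reads or more limits only genes of a few reads, such as SLPI.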

Other observations

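Some groups not described above also stood out by library. Of 20 aminoacyl-tRNA synthetases, which load amino acids onto tRNA, 6 were at least 2-fold higher in wild type 1 than in control 1 and 0 were lower by that much. WARS1, the one for tryptophan, was at 16.5 and 85.5 FPKM there, and at 23.4, 36.8, 36.0 and 38.8 in control 2, control 3, wild type 2 and wild type 3. TP53I3, a p53 target, lay higher in both tables, at 3.39 and 17.9 FPKM and at 0.948 and 1.28 against 1.43 and 1.99. TST, a mitochondrial sulphurtransferase, did so at 5.81 and 10.9 FPKM and at 2.45 and 4.99 against 6.08 and 6.01. ZNHIT2, a factor of snRNP assembly, was at 8.49 and 23.1 FPKM and at 3.31 and 5.90 against 6.45 and 8.60. Without control 2 the 5-library difference went from 0.63 to 0.24 for TST, from 0.63 to 0.29 for ZNHIT2 and from 0.36 to 0.24 for TP53I3. Of 22 glycolysis genes 0 lay on the same side in both tables, against 7.42% of all genes higher and 9.24% lower. Their pooled median was -0.00225, but the tables leaned in opposite directions. Wild type 1 lay below control 1 in 16 of the 22, at a median of -0.27. The 5-library groups had 16 of the 22 higher on wild-type matrix, at a median of 0.12, or 0.0041 without control 2. KRT80, an epithelial keratin, was at 17.5 FPKM in control 1 and 1.03 in wild type 1, and at 2.14, 6.53, 6.33 and 5.64 in the other table. LGALS1, the lectin galectin-1, was at 122 and 406 FPKM and at 308, 180, 218 and 225. Both had control 2 apart from the other 3 libraries of its table.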
